A study of Homo sapiens with 4 samples.

Results

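The transcripts of 10 matrix genes were followed through an RNA sequencing experiment on A673 cells: the fibrillin genes FBN1 and FBN2, the proteoglycan genes VCAN, BGN, DCN and LUM, and the glycoprotein genes FN1, TNC, THBS1 and SPARC. They were taken by symbol from the deposited count files, which list 23228 genes, and all 10 were found there. A673 is an established cell line from a Ewing sarcoma and expresses the fusion factor EWS-FLI1. Cells were cultured with serum, insulin and beta-mercaptoethanol, transfected with siRNA by a lipid reagent and harvested after 48 h. The 4 groups hold 1 library each: scrambled siRNA (control_SMPD1) with SMPD1 siRNA (siSMPD1), and scrambled siRNA (control_GPR64) with GPR64 siRNA (siGPR64). The titles give this pairing, and the labels describe both controls by the same treatment. SMPD1 encodes acid sphingomyelinase, and GPR64 (current symbol ADGRG2) encodes a receptor of the adhesion class of G protein-coupled receptors.

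The 10 genes encode secreted proteins of the extracellular matrix. Fibrillins assemble into microfibrils, which scaffold elastic fibres and hold latent TGF-beta and BMP ligands. FBN1 is the main fibrillin of adult tissue and FBN2 is known mainly from development. Versican (VCAN) is a large chondroitin sulfate proteoglycan that binds hyaluronan, whereas biglycan (BGN), decorin (DCN) and lumican (LUM) are small leucine-rich proteoglycans that bind collagen. Fibronectin (FN1) is an adhesive glycoprotein read by integrins. Tenascin-C (TNC), thrombospondin 1 (THBS1) and SPARC are matricellular proteins, which modulate adhesion and growth factor access more than they build fibres. The EWS-FLI1 fusion is known to repress many mesenchymal and matrix genes in Ewing sarcoma cells.

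Gene counts summed to 19614913 and 18849264 in control_SMPD1 and siSMPD1, but to 2882854 and 2534861 in control_GPR64 and siGPR64. Levels are given as CPM, counts scaled to a common library size, and for each pair the control is given before the knockdown. A count of 0 allowed up to 0.156 and 0.159 CPM in the SMPD1 pair, but as much as 1.03 and 1.18 CPM for the GPR64 libraries, taking 3 counts as the limit. Since each group is a single library, differences could not be set against a spread between replicates, and every interval is a 95% Clopper-Pearson interval that covers counting error only. SMPD1 stood at 414 CPM in control_SMPD1 and 91.7 CPM in siSMPD1, and GPR64 at 108.6 CPM in control_GPR64 and 50.1 CPM in siGPR64. The control_GPR64 library, labelled as scrambled siRNA, held SMPD1 at 52.8 CPM, which is below the SMPD1 knockdown library. SMPD1 stood at 232 CPM in siGPR64, 4.38-fold above control_GPR64 (3.68 to 5.28). GPR64 was also lower in control_GPR64 than in control_SMPD1, at 388 CPM, and siSMPD1, at 539 CPM. The 2 control libraries thus stand apart, and ratios of the 10 genes that turn against the other control are given with it. Of 14 Ewing sarcoma markers, 13 were at or above 1 CPM in every library, and CD99 was listed at 0 in all 4. Reads without a unique alignment, 20.1% to 30.1% of entries, were not assigned to genes. Whether CD99 reads were among them was not tested, so this 0 does not show that the transcript was absent. The labels give the tissue as muscle. Of 14 skeletal muscle markers, 2 reached 1 CPM in each library, and MYOD1 and MYOG were at 0 throughout. Of 12 fibroblast markers, 6 to 8 reached 1 CPM, and their summed level was 1097 and 1461 CPM in control_SMPD1 and siSMPD1 and 569 and 903 CPM in control_GPR64 and siGPR64. TCF21, TWIST2 and DPT were at 0 throughout, and PDGFRA had at most 3 reads. COL1A2 was the largest part of that sum, at 623 and 915 CPM in the SMPD1 pair and 200 and 442 CPM in the GPR64 pair. The part of these markers in the results below was not tested. In bulk RNA, fewer cells of a type and less RNA per cell cannot be told apart.

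**Figure D1:**
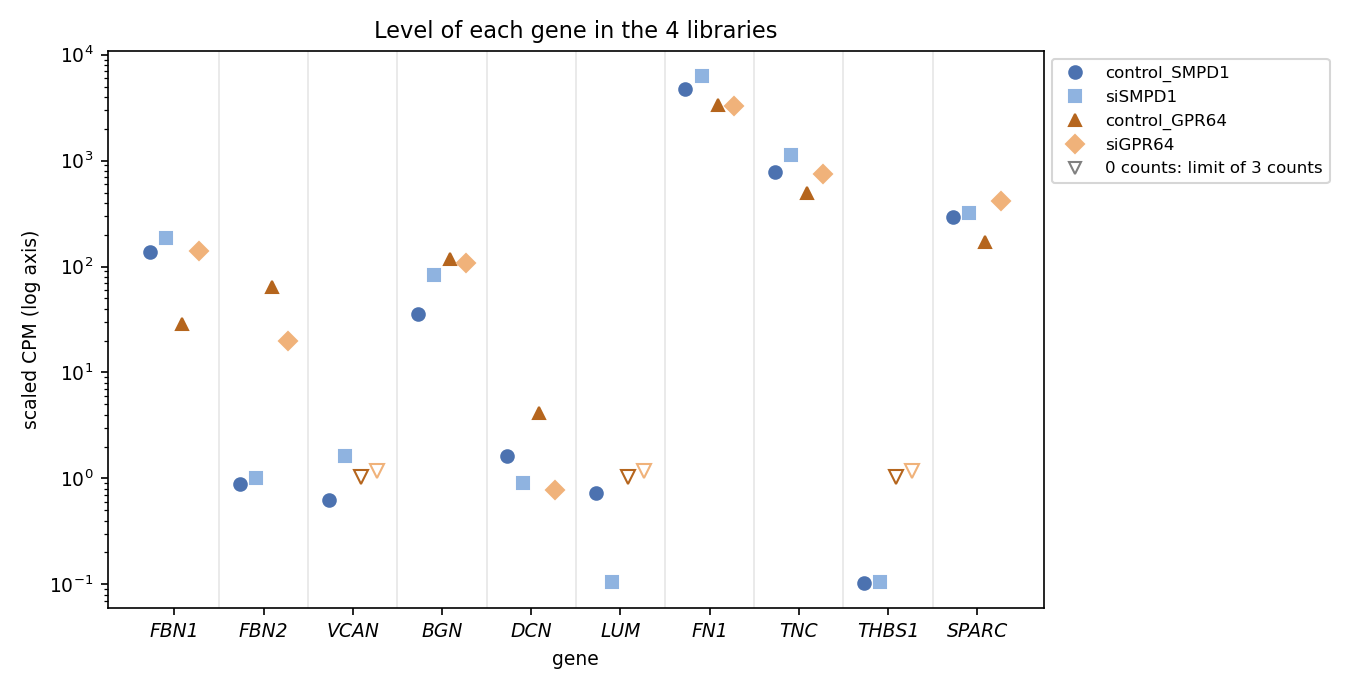
Level of each gene in scaled CPM on a log axis, 1 point per library; open triangles mark libraries with 0 counts and sit at the level of 3 counts. FN1, TNC and SPARC are above 100 CPM in all 4 libraries, FBN1 is lowest and FBN2 highest in control_GPR64, and VCAN, LUM and THBS1 have 0 counts in both libraries of the GPR64 pair.

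The genes spanned a wide range of levels in these cells. Per kilobase of exon (GENCODE 29 exon unions, used for length alone), FN1 was the most abundant of the 10 in every library, at 277 and 363 CPM per kilobase in control_SMPD1 and siSMPD1 and 195 and 189 in control_GPR64 and siGPR64. TNC, SPARC and BGN followed, between 14.6 and 118.5 CPM per kilobase. FBN1 stood between 1.79 and 11.7, and FBN2 between 0.0671 and 4.88. VCAN, DCN, LUM and THBS1 stayed at or below 0.32 CPM per kilobase wherever they had reads. The 10 genes together held 0.591% and 0.803% of gene counts in control_SMPD1 and siSMPD1 and 0.431% and 0.474% in control_GPR64 and siGPR64. FN1 alone made up 69.4% to 79.4% of these reads.

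A rule of size was used to mark differences: a mean of at least 1 CPM over the 2 libraries, at least a 2-fold ratio, and equality outside the counting interval. In siSMPD1 against control_SMPD1, 7 of the 10 genes were measured, 2 of them (VCAN and BGN) were higher and 0 lower, where 2.49% of 12749 measured genes were higher and 1.11% lower. In siGPR64 against control_GPR64, 7 were measured, 2 were higher (FBN1 and SPARC) and 2 lower (FBN2 and DCN), against 6.56% higher and 5.18% lower of 12830 genes. Between the controls, 3 of 7 were higher in control_GPR64 (FBN2, BGN and DCN) and FBN1 was lower, against 7.02% and 8.33% of 12798 genes. Median log2 ratios of the measured members were 0.45, -0.05 and -0.51 in these comparisons, beside -0.00, 0.01 and -0.01 over all measured genes. Set against the other control, siSMPD1 had 2 of 7 measured members higher (10.5% of genes) and 2 lower (8.02%), and siGPR64 had 2 of 7 higher (6.18%) and 0 lower (5.25%). VCAN in the SMPD1 pair, DCN in both pairs and against the other control, and FBN2 between the controls and in siGPR64 against control_SMPD1 reached a mean of 1 CPM only through the library where they were high, so they add no weight to these counts. In siSMPD1 against control_GPR64 the low FBN2 library was just above that limit, at 1.01 CPM.

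**Figure D2:**
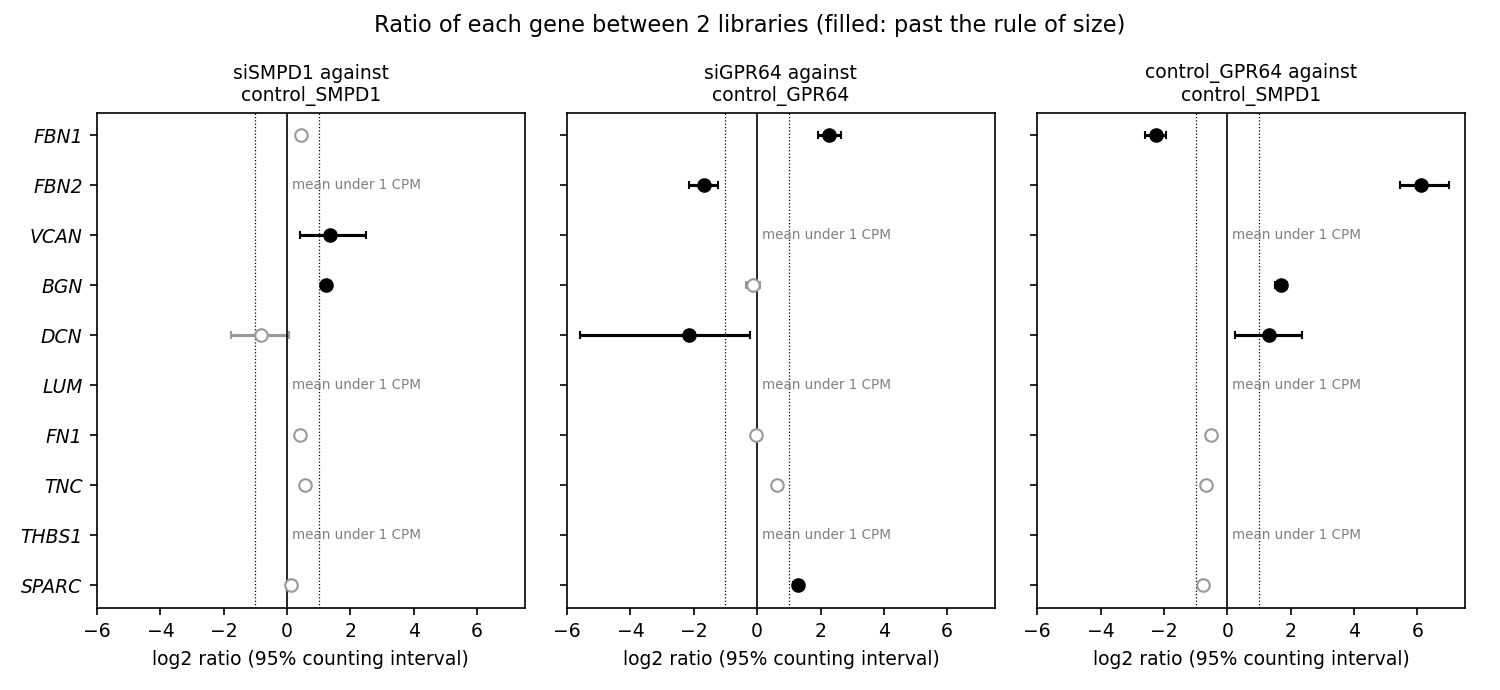
Log2 ratio of each gene in the 3 comparisons, with 95% counting intervals; filled points are past the rule of size and dotted lines mark 2-fold. FBN1 and FBN2 lie on opposite sides of 0 in siGPR64 against control_GPR64 and, with signs exchanged, between the controls; BGN and VCAN lie above 2-fold in siSMPD1.

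Among the members with reads in every library, the fibrillin genes showed the widest separation between libraries. FBN1 levels were 137 (control) and 188 CPM (knockdown) for the SMPD1 pair, and 28.8 and 139.9 CPM for the GPR64 pair. It was thus low in control_GPR64 alone, on 84 reads. FBN1 was 4.84-fold higher in siGPR64 than in control_GPR64 (3.82 to 6.24) and 1.36-fold higher in siSMPD1 than in control_SMPD1 (1.30 to 1.44), the latter short of the rule. Against control_SMPD1, the siGPR64 library differed by 1.02-fold (0.909 to 1.14), so its call rests on control_GPR64. FBN2 levels were 0.885 and 1.01 CPM for the SMPD1 pair, on 17 and 19 reads, and 64.4 and 20.0 CPM for the GPR64 pair, on 188 and 51 reads. It was near the 1 CPM filter in the SMPD1 pair, though above the limit of 3 counts, and well above both in the GPR64 pair. FBN2 was 69.3-fold higher in control_GPR64 than in control_SMPD1 (44.3 to 127.6), and 26 of 12798 measured genes (0.203%), FBN2 included, had a ratio at least as large in either direction. It was 3.2-fold lower in siGPR64 than in control_GPR64 (2.35 to 4.48), yet 21.5-fold higher in siGPR64 than in control_SMPD1 (12.8 to 41.7). In siSMPD1 FBN2 did not reach the filter, and its ratio to control_SMPD1 had an interval from 0.56 to 2.33.

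The balance of the 2 fibrillins was read within each library, which needs no scaling between libraries. Of the reads of both genes, FBN2 took 0.64% in control_SMPD1 (17 of 2657, interval 0.373% to 1.02%) and 0.534% in siSMPD1 (19 of 3558, 0.322% to 0.833%). It took 69.1% in control_GPR64 (188 of 272, 63.3% to 74.6%) and 12.5% in siGPR64 (51 of 408, 9.45% to 16.1%). The intervals of the SMPD1 pair overlap, and those of the GPR64 pair overlap neither each other nor the SMPD1 pair. FBN1 reads outnumbered FBN2 reads 155-fold and 186-fold in control_SMPD1 and siSMPD1 and 7-fold in siGPR64, whereas in control_GPR64 there were 2.24 FBN2 reads per FBN1 read. In GENCODE 29, exons of FBN2 share 56 bases with SLC27A6 on the opposite strand, and SLC27A6 had 0 counts in all 4 libraries.

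**Figure D3:**
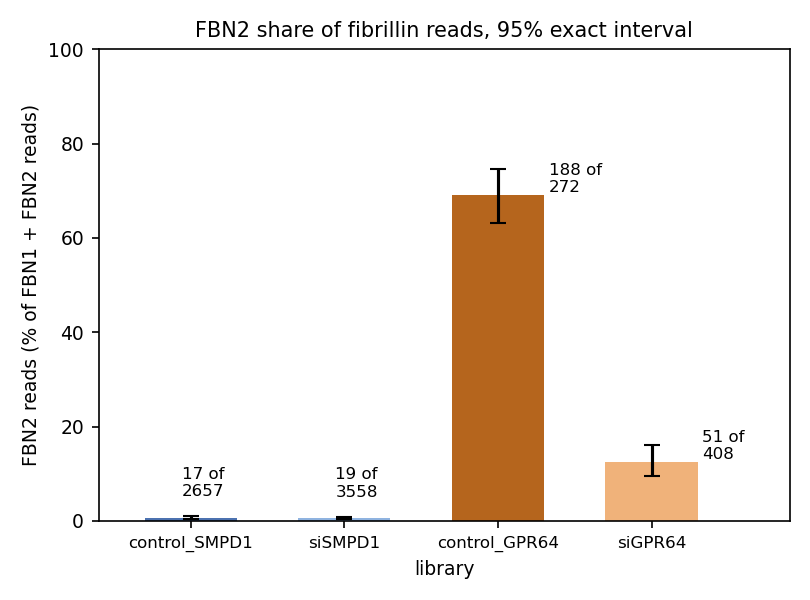
FBN2 reads as a percentage of FBN1 plus FBN2 reads in each library, with exact 95% binomial intervals and the reads behind each bar. The share is under 1% in both libraries of the SMPD1 pair, 69.1% in control_GPR64 and 12.5% in siGPR64.

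The promoter sequences of FBN1, FBN2, BGN and SPARC are shown because these genes passed the rule on more reads than VCAN and DCN did. FBN1 and SPARC were lowest in control_GPR64, and FBN2 and BGN were highest there. Each is the 250 bases before the RefSeq start on GRCh38.p14, where 8 of the 10 genes matched an entry. Capitals mark matches on either strand to GGGCGG (the GC box bound by Sp1) or GGAATG (the TEAD element).
FBN1, chr15:48644971-48645220, minus strand: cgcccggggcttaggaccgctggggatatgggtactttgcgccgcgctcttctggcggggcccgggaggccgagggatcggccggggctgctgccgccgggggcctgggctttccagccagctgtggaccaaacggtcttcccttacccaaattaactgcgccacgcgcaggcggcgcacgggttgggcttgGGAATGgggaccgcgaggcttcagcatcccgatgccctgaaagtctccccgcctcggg
SPARC, chr5:151686916-151687165, minus strand: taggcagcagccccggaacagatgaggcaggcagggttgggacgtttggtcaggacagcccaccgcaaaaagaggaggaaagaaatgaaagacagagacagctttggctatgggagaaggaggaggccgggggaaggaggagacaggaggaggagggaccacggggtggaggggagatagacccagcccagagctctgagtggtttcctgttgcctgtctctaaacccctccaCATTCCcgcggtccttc
FBN2, chr5:128538246-128538495, minus strand: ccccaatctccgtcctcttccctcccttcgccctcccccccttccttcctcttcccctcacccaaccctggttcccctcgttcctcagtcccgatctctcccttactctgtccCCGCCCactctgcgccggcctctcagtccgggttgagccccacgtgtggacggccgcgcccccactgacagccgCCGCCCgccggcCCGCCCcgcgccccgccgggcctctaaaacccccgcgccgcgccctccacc
BGN, chrX:153494730-153494979, plus strand: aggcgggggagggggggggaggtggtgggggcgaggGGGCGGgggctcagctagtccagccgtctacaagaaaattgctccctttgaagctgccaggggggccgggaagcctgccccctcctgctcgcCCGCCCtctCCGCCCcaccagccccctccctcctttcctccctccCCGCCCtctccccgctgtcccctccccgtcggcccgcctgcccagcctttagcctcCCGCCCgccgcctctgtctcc
FBN1 and SPARC each held 1 match to GGAATG and 0 to GGGCGG. FBN2 and BGN held 3 and 5 matches to GGGCGG and 0 to GGAATG. Over 22114 RefSeq promoters of the same length, 40.9% held GGGCGG and 12.15% held GGAATG, so neither match is rare. TGANTCA (the AP-1 element, in 6.86% of promoters) and TATAAA (the TATA box, in 11.8%) were in none of the 4 windows. The windows held 25 CpG pairs in FBN1, 25 in FBN2, 16 in BGN and 7 in SPARC, where the median promoter held 9. The promoters of other members do not split in this way: that of TNC, also lowest in control_GPR64, held 1 match to GGGCGG and 0 to GGAATG, and that of THBS1 held both. These matches are a description of the letters alone.

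Among the proteoglycan genes, BGN was the only 1 with more than 100 reads in any library. BGN levels were 35.9 and 83.8 CPM for the SMPD1 pair, and 117 and 106.9 CPM for the GPR64 pair. It was low in control_SMPD1 and higher in the 3 other libraries. BGN was 2.33-fold higher in siSMPD1 than in control_SMPD1 (2.13 to 2.56), and 1.99% of measured genes had a ratio at least as large. Against control_GPR64 the direction turned, with siSMPD1 1.4-fold lower (1.24 to 1.57). In siGPR64 BGN was level with control_GPR64, at 1.10-fold lower with an interval that includes equality (0.932 to 1.29), and 2.98-fold higher than control_SMPD1 (2.58 to 3.43). VCAN had 12 reads in control_SMPD1, 31 in siSMPD1 and 0 in both libraries of the GPR64 pair, which corresponds to 0.625 and 1.64 CPM and limits of 1.03 and 1.18 CPM. It was 2.56-fold higher in siSMPD1 (1.31 to 5.62) on these few reads, and at least 1.6-fold higher than in control_GPR64 with its 0 reads set to 3 (the counting interval starts at 1.22). The limits in the GPR64 pair lie above the level of control_SMPD1, so a difference between the controls was not detectable at this depth. In GENCODE 29 the antisense gene VCAN-AS1 shares 453 exon bases with VCAN, and no source used here gives the strand setting of the counts.

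DCN and LUM, the other small leucine-rich members, had few reads in every library. DCN had 31 and 17 reads in the SMPD1 pair, or 1.61 and 0.901 CPM, and 12 and 2 reads in the GPR64 pair, or 4.11 and 0.783 CPM. It was lower in each knockdown library than in its own control. The ratio was 1.77-fold in siSMPD1 with an interval that includes equality (0.961 to 3.45), and 4.44-fold in siGPR64 (1.17 to 48.3) on 2 reads. Against control_SMPD1 the siGPR64 ratio was 2-fold with an interval from 0.524 to 17.8, which also includes equality. LUM had 14 reads in control_SMPD1, 2 in siSMPD1 and 0 in the GPR64 pair, or 0.729 and 0.106 CPM and limits of 1.03 and 1.18 CPM. Its ratio in siSMPD1 was 5.71-fold lower (1.58 to 62.3), but the mean level was under 1 CPM and it was not counted.

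FN1 and TNC carried most of the matrix reads and neither passed the rule in any of the 3 comparisons. FN1 levels were 4790 and 6284 CPM for the SMPD1 pair, where it had the most counts of all genes, and 3375 and 3270 CPM for the GPR64 pair, where it ranked 2. The SMPD1 pair lay above the GPR64 pair in both arms. FN1 was 1.31-fold higher in siSMPD1 than in its control (1.30 to 1.32) and 1.03-fold lower in siGPR64 than in its control (1.002 to 1.06). Neither passed the rule, and 25.6% and 93.3% of measured genes had ratios at least as large. TNC levels were 777 and 1142 CPM for the SMPD1 pair, and 491 and 753 CPM for the GPR64 pair. Each knockdown library was above its own control, by 1.47-fold for SMPD1 (1.44 to 1.501) and 1.53-fold for GPR64 (1.43 to 1.64), both short of the rule. Against control_SMPD1, siGPR64 was 1.03-fold lower for TNC with an interval that includes equality (0.983 to 1.08). Against control_GPR64, siSMPD1 was 2.33-fold higher (2.21 to 2.46), past the rule.

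SPARC, a collagen-binding matricellular protein, differed mainly in the GPR64 pair. Its levels were 292 and 317 CPM for the SMPD1 pair, and 171 and 419.9 CPM for the GPR64 pair, the last on 1072 reads. The control_GPR64 library was lowest and siGPR64 highest. SPARC was 2.45-fold higher in siGPR64 than in control_GPR64 (2.20 to 2.73), with 9.7% of measured genes at a ratio at least as large. Against control_SMPD1 it was 1.44-fold higher (1.35 to 1.54), short of the rule and in the same direction. In siSMPD1 it was 1.09-fold higher than in control_SMPD1 (1.05 to 1.13). In GENCODE 29 SPARC shares 381 exon bases with the antisense gene CLMAT3. THBS1, an activator of latent TGF-beta, had 2 reads in control_SMPD1, 2 in siSMPD1 and 0 in both other libraries. These counts are at or under the limit of 3, so no ratio is given.

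The order of levels differed between members. FBN2 and BGN shared the order control_GPR64, siGPR64, siSMPD1, control_SMPD1 from high to low. For FBN2 the lowest neighbours in that order did not differ beyond counting error, nor did the highest neighbours for BGN. FBN1, TNC and SPARC were all lowest in control_GPR64, at 28.8, 491 and 171 CPM. FBN1 and TNC were both highest in siSMPD1, with siGPR64 and control_SMPD1 next and not differing beyond counting error. FN1 was highest in siSMPD1 and lowest in siGPR64, with 1.92-fold between them. For FN1 and SPARC all neighbours in the order differed beyond counting error. The profiles were also set against the 9769 genes with at least 10 reads in every library and a mean of at least 10 CPM, by Euclidean distance of centred log2 CPM over the 4 libraries. The genes nearest to FBN1 were PARVB (distance 0.05) and ELF4 (0.11), and 21 genes lay within 0.5. The genes nearest to BGN were GALNT10 (0.13) and LPPR3 (0.19), with 15 within 0.5. FBN2 had 0 genes within 0.5, and its nearest were RPL7 (1.21) and NACAP1 (1.69). For FN1, TNC and SPARC, 1074, 763 and 471 genes lay within 0.5, so their profiles were common. The nearest were C1orf201 and RBPJ to FN1, NDRG3 and OLFML3 to TNC, and C17orf63 and SYT6 to SPARC.

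Genes that build, bind or cleave these matrix proteins were counted from lists of related genes, to be read against the shares of all genes given above (2.49% higher and 1.11% lower in siSMPD1, 6.56% and 5.18% in siGPR64). Most of the genes picked from these lists (up to 3 per list and knockdown) depend on the control. Of those past the rule, 4 of 14 in siSMPD1 and 2 of 17 in siGPR64 stayed past it against the other control, sign unchanged. TLR2 (against either control) and ADAMTS15 in siGPR64 reached a mean of 1 CPM only through the library where they were high. The same held for SDC1, OGN and MMP13 in siSMPD1. These genes add no weight to the counts of their lists. The elastic fibre and microfibril list had 20 measured genes in siSMPD1 with a median log2 ratio of 0.60, of which 2 were higher and 0 lower. These were MFAP2, a microfibril-associated protein (2.01-fold, 1.70 to 2.38), and ADAMTS10, a fibrillin-binding protease family member (2.02-fold, 1.69 to 2.43), both close to the 2-fold limit. Against control_GPR64 their log2 ratios were -0.09 and 0.71, neither past the rule. The list as a whole had 8 of 20 higher there and 2 lower, with a median of 0.59, beside 10.5% and 8.02% of all genes. Between the controls, 4 of 20 were lower and 2 higher in control_GPR64. In siGPR64 the list had a median of 0.17 over 21 genes, with 2 higher and 2 lower. ELN, the elastin gene, was 2.67-fold higher (2.29 to 3.13) and FBLN7 was also higher. MFAP3 was 2.92-fold lower (2.06 to 4.28) and MFAP4, a microfibril-associated glycoprotein, 2.3-fold lower (1.89 to 2.83). MFAP3 was past the rule against control_SMPD1 as well, with a log2 ratio of -1.14, and ELN was not, at 0.27.

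The matricellular and adhesive glycoprotein list had most of its calls in siGPR64. In siSMPD1 2 of 13 measured genes were lower and 0 higher, with a median log2 ratio of 0.03. CYR61, a matricellular YAP target, was 4.46-fold lower (3.58 to 5.67) and CTGF 2.59-fold lower (1.90 to 3.62), and both were past the rule against control_GPR64 too. In siGPR64 7 of 14 were higher (6.56% of all genes) and 0 lower, with a median of 1.17. TGFBI, a TGF-beta-induced adhesion protein, was 5.54-fold higher (4.64 to 6.7), FSTL1, a SPARC-family glycoprotein, 3.94-fold higher (3.29 to 4.78) and NID2, a basement membrane nidogen, 3.47-fold higher (2.56 to 4.84). TNXB, NID1, ECM1 and CILP2 were the others. Against control_SMPD1 the log2 ratios of TGFBI, FSTL1 and NID2 were -0.24, 0.21 and -0.66, none past the rule. The list as a whole had 3 of 14 higher there (THBS4, TNXB and NID1), with a median of 0.22. TNXB and NID1 were thus past the rule and higher in siGPR64 against both controls. In siSMPD1 against control_GPR64, 5 of 15 were higher and 2 lower, with a median of 0.89. Between the controls 5 of 15 were lower and 2 higher in control_GPR64. Whether the knockdowns differ for this list was not tested.

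Receptors, proteases and synthesis enzymes were mostly short of the rule. Of receptors of these proteins, 1 of 9 measured genes was higher in siSMPD1 (ITGA4, an integrin chain that binds fibronectin, 2.38-fold, 1.70 to 3.41) and 4 of 11 in siGPR64 (6.56% of all genes), with medians of 0.22 and 0.84. The latter were ITGB5 (3.12-fold, 2.67 to 3.67), MET (4.07-fold, 2.41 to 7.61), TLR2 and PTPRZ1. TLR2, a receptor for biglycan, was at least 4.19-fold higher with the 0 reads of control_GPR64 set to 3 (the counting interval starts at 2.87). Against the other control ITGA4 turned, with a log2 ratio of -0.89 in siSMPD1, and ITGB5 and MET were at 0.39 and 0.24 in siGPR64, short of the rule. In that comparison 3 of 11 receptors were higher (ITGA4, ITGA9 and TLR2) and 1 lower (ITGAV), with a median of 0.24. Among proteases, MMP2, a gelatinase, was 3.19-fold higher in siSMPD1 (2.95 to 3.47) and PCOLCE, an enhancer of procollagen processing, 2.65-fold higher (2.32 to 3.04), while MMP13 was lower. These were 3 of 17 measured genes, with a median of 0.38. In siGPR64 4 of 16 proteases were higher and 1 lower, with a median of 0.16. MMP1 was 5.91-fold higher (5.26 to 6.66), PLAU 5.06-fold higher (2.05 to 18.4), and ADAMTS15, a versican-cleaving protease with 0 reads in control_GPR64, at least 6.1-fold higher with these set to 3 (the counting interval starts at 4.41). MMP9 was the other higher gene and TLL1 the lower one. MMP1 was lower against control_SMPD1, with a log2 ratio of -1.92, and PLAU and ADAMTS15 were at -0.20 and -0.18. MMP2 stayed past the rule in siSMPD1 against control_GPR64, at 1.69, and PCOLCE turned to -0.22. MMP13 had 0 reads in control_GPR64 and no firm ratio to it.

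Enzymes of chondroitin and dermatan sulfate synthesis had medians of 0.25 in siSMPD1 (1 of 19 higher, CHPF, 2.18-fold, 1.95 to 2.46) and 0.22 in siGPR64 (1 of 20 higher and 1 lower). B3GAT3, which completes the linker of glycosaminoglycan chains, was 2.15-fold higher in siGPR64 (1.68 to 2.78), and CSGALNACT2, which starts chondroitin chains, 2.06-fold lower (1.56 to 2.76). Against the other control CHPF, B3GAT3 and CSGALNACT2 were at log2 ratios of 0.21, 0.39 and -0.60, none past the rule. Cell-surface and basement membrane proteoglycans had medians of 0.12 and 0.05 over 14 genes. SDC1 was 2.49-fold higher (1.34 to 5.12) and SPOCK1 2.71-fold lower (1.81 to 4.23) in siSMPD1, and SDC2 2.22-fold higher (1.83 to 2.72) in siGPR64. All 3 turned against the other control, with log2 ratios of -0.14, 0.30 and -0.54. TGF-beta ligands, receptors, SMADs and targets had medians of 0.18 and -0.09 over 18 genes. BHLHE40 (2.69-fold, 2.21 to 3.29) and the receptor gene TGFBR1 (2.14-fold, 1.67 to 2.77) were higher in siSMPD1, and BMP7, a ligand that binds fibrillin microfibrils, was 2.86-fold lower in siGPR64 (1.90 to 4.50). BMP7 levels were 3.18 and 3.13 CPM for the SMPD1 pair and 33.9 and 11.8 CPM for the GPR64 pair, with control_GPR64 highest as for FBN2. Against control_SMPD1, siGPR64 was therefore higher for BMP7, with a log2 ratio of 1.87 that is past the rule. BHLHE40 stayed past the rule against control_GPR64 at 1.61 and TGFBR1 did not, at 0.24. The hyalectan and hyaluronan list had medians of 0.35 and 0.17 over 7 genes, with HMMR 2.10-fold lower in siGPR64 (1.80 to 2.46) as its single gene past the rule and at a log2 ratio of 0.36 against control_SMPD1. In siSMPD1 the largest ratio of its measured genes was that of HAS3, a hyaluronan synthase, at 1.93-fold (1.15 to 3.38). Of 14 further small leucine-rich genes, 2 were measured in siSMPD1 and 1 in siGPR64. OGN was 3.03-fold lower in siSMPD1 (1.55 to 6.82), with 0 reads in control_GPR64, and TSKU stood at 1.3-fold in siGPR64 (0.978 to 1.72) and at a log2 ratio of -0.03 against control_SMPD1.

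**Figure D4:**
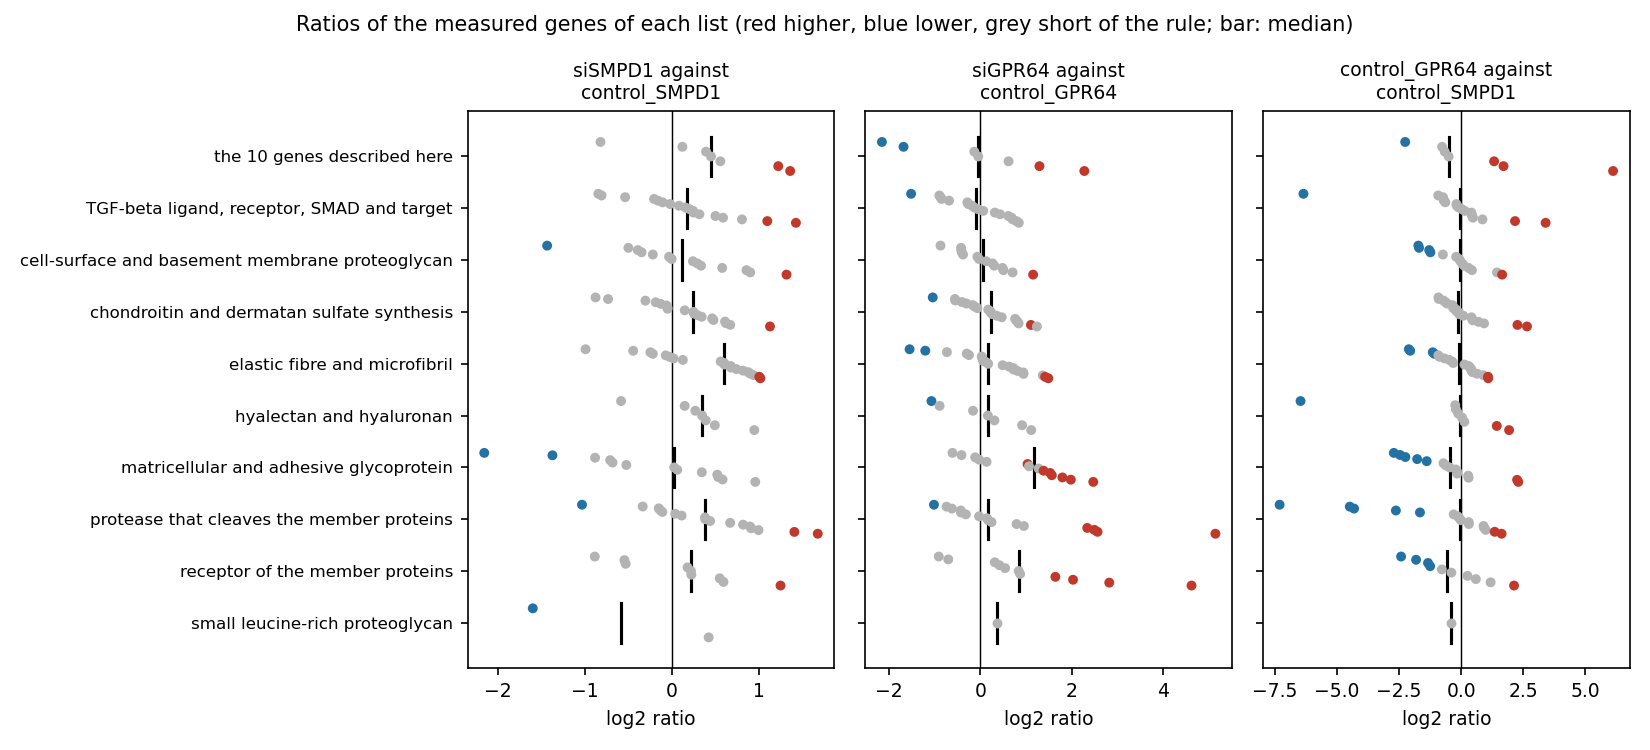
Log2 ratios of the measured genes of each list in the 3 comparisons, 1 point per gene, with a bar at the median (x scales differ between panels). The elastic fibre median lies at 0.60 in siSMPD1 and the matricellular median at 1.17 in siGPR64, where 7 of 14 genes are past the rule.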

How the data were processed

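Per the labels' protocols, total RNA from 4 transfections was depleted of ribosomal RNA for paired-end libraries. HTSeq, TopHat2, SAMtools, bcl2fastq and the build hg19 appear in the submitters' processing notes; no source used here gives versions, annotation, strand setting or counting mode. Each file the authors deposited holds the raw counts of 1 library by gene symbol. HTSeq summary lines, 36.5% to 44.8% of entries, were left out of library sizes. Groups and pairs come from the titles; nothing says that the cultures were independent.

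Counts were scaled with TMM in edgeR 4.0.16 (R 4.3.3) over 13664 genes with at least 1 CPM in any library. Log2 ratios used a prior of 0.5 count, and intervals of read shares (95%, Clopper-Pearson) came from SciPy 1.17.1. Intervals and limits cover counting error only, and reads without molecular identifiers are not independent molecules. A count of 0 was set to 3 counts for a bound. The rule of size was run on simulated counts with counting error only, and changes were set only in genes at a mean of at least 5 CPM. That run holds no spread between libraries, so it cannot show how often the rule errs here, nor for changed genes as low as VCAN and DCN. Alternatives were DESeq2 1.42.0 size factors, unscaled totals, other filters, prior and fold, the other control, and edgeR and DESeq2 tests with both controls as a single group.

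The members and lists were chosen with earlier results of these data known. Named are all members, the targets, and per list and knockdown up to 3 genes past the rule whose interval bound lies furthest from equality, otherwise the gene with the largest ratio; the 2 nearest genes are named per profile. Other list genes past the rule are named only. Promoters are from RefSeq (GRCh38.p14), and gene lengths and overlaps from GENCODE 29 (GRCh38), another build than that of the counts.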

Additional observations from a re-analysis of the deposited data

Results flagged for a closer look

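FN1 had ratios on opposite sides of equality in the knockdown libraries, each with a counting interval that excludes equality. Its log2 ratio was 0.39 in siSMPD1 against control_SMPD1 and -0.05 in siGPR64 against control_GPR64. Each direction rests on 1 library against 1, so the difference between the pairs was not tested. FN1 has the most reads of the 10 genes in all 4 libraries, and neither ratio reached 2-fold.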

How the results depend on the processing

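Both pooled-control tests called 0 members in either direction in siSMPD1 and in siGPR64. Over all genes edgeR's quasi-likelihood test called 0 in both (179 and 313 at an unadjusted p under 0.05), and DESeq2 called 1 and 0 (179 and 211 unadjusted). Since each knockdown is a single library, the spread in these tests comes from the 2 controls alone, which stand apart. The tests could therefore hardly call a gene, and 0 calls do not show that the members were unchanged. In the pooled edgeR fit, FBN2 in siSMPD1 had a log2 ratio of -4.955, which rests on control_GPR64 at 64.4 CPM. FBN2 was at 0.885 CPM in control_SMPD1 and 1.01 CPM in siSMPD1. With the other control, siSMPD1 had 2 lower members and a median log2 ratio of 0.889, and BGN turned to -0.483; siGPR64 had 0 lower members and a median of 0.025, and FBN2 and BGN turned to 4.427 and 1.573. Without a filter on low counts, siSMPD1 had 1 lower member (LUM) and a median of 0.287, and the median between the controls was -0.715. At a mean of at least 5 CPM, siSMPD1 had 1 higher member, siGPR64 had 1 lower member with a median of 0.286, and the controls had a median of -0.584; fewer members were measured there. Without TMM the median between the controls was -0.457, and at 1.5-fold 3 members were lower in control_GPR64. Over all genes, the 459 past the rule in siSMPD1 became 697 without the filter, 198 at 5 CPM, 1535 at 1.5-fold and 2390 against the other control; 1506 in siGPR64 and 1965 between the controls became 3148 and 3985 at 1.5-fold. Of all single-member alternatives 137 kept direction and side of the rule, 19 fell below it, 6 passed it and 3 turned. In the pooled-control fits an adjusted p under 0.05 stood in for the rule, which concerns 6 of the 19 in edgeR and 6 in DESeq2. In 3 further alternatives the sign turned with the ratio short of the rule throughout. In siGPR64 these were TNC at -0.044 with the other control, and BGN at 0.503 and 0.486 in the pooled-control edgeR and DESeq2 fits. The cause was not tested. No paired analysis was possible because each group holds 1 library and the titles carry no replicate numbers, which also leaves no replicate to omit. Depth limits VCAN, LUM and THBS1 in the GPR64 pair.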

Other observations

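Some partners of versican and of latent TGF-beta differed between the 2 scrambled siRNA libraries. CD44, TGFB2 and HAPLN1 were chosen after their values were seen. Of 8 measured hyalectan and hyaluronan genes, 2 were higher and 1 lower in control_GPR64, as were 2 and 1 of 18 TGF-beta genes. Both lists had a median log2 ratio of -0.04, and over all genes 7.02% were higher and 8.33% lower. CD44, TGFB2 and HAPLN1 reached a mean of 1 CPM only through the library where they were high. CD44, a hyaluronan receptor, had 76 and 90 reads in the SMPD1 pair (control, then knockdown) and 0 and 1 in the GPR64 pair, and was at least 3.85-fold lower in control_GPR64 than in control_SMPD1 with 0 reads set to 3 (the counting interval starts at 3.06). TGFB2, a ligand held latent in fibrillin-rich matrix, had 70 and 38 reads, then 0 and 1, and its level was at least 3.55-fold lower in control_GPR64 by the same floor (interval from 2.81). No ratio is given within the GPR64 pair, where both libraries are under the limit of 3 counts. HAPLN1, the link protein that ties versican to hyaluronan, had 8, 25, 5 and 10 reads and was 3.81-fold higher in control_GPR64 than in control_SMPD1 (1.06 to 14.3).

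PAX7, a muscle stem cell factor also known from Ewing sarcoma, made up most of the muscle marker signal. Its levels were 196.7 and 189.8 CPM for the SMPD1 pair, and 24.0 and 126.1 CPM for the GPR64 pair. EMCN, listed as an endothelial marker, was at 2.08 and 1.54 CPM, then at 23.6 and 7.83 CPM. The rest of that 8-gene list did not go with it: in control_GPR64 PECAM1, VWF, TEK and ERG were at 0 reads and CDH5, CLDN5 and ESAM at 1 read each. PAX7 was thus lowest and EMCN highest in control_GPR64, the library with the lowest FBN1 and the highest FBN2.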
